A study of Drosophila melanogaster with 18 samples.

Results

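Transposon and gene RNA was compared between ovarian somatic cells depleted of Maelstrom (Mael) and cells given RNA interference against EGFP, the control. Ovarian somatic cells (OSCs) are a cultured Drosophila melanogaster line of the follicle cell lineage. They hold the nuclear branch of the piRNA pathway but none of the germ cells of the intact ovary. The members were the features of the deposited RNA table whose mean over both libraries was at least 5 RPKM (reads scaled to feature length and to library size). Of 35502 features, 7106 met this floor, namely 35 of 173 transposons and 7071 of 35327 RefSeq transcripts. The transcripts stood for 4250 genes, each represented by its transcript with the highest mean (its leading transcript).

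The series held 18 samples, of which 4 were RNA libraries of OSCs taken 2 days after knockdown of EGFP, Piwi, Mael or Brahma (Brm). EGFP is a jellyfish protein that fly cells lack, so its knockdown served as the control for the RNA interference itself. No genotype, drug or second agent beyond the RNA interference is given in the labels, and all 4 groups were the same line under the same culture conditions. The remaining samples were chromatin immunoprecipitation (ChIP) and input libraries of OSCs and ovaries, and only the control OSC libraries among them are used below. With 1 library in each group, differences could not be checked against replicates, and p-values are not given.

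In the nucleus, Piwi carries piRNAs to nascent transposon transcripts and the locus is then silenced, partly through histone H3 lysine 9 methylation. Mael acts in this pathway downstream of Piwi and is needed to shut off transcription of the target, while its loss leaves much of the methylation in place. Brm is the motor subunit of SWI/SNF, a family of chromatin remodelling complexes that open chromatin. In follicle cells the main targets are long terminal repeat (LTR) retrotransposons of the gypsy superfamily, whose relatives are the retroviruses.

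Differences are given as log2(RPKM + 1) in the Mael library minus that in the EGFP library, relative to the median feature, which lay at -0.13 as deposited. The added 1 RPKM understates the difference of weakly expressed features. A feature was called higher or lower at a relative difference of at least 1, which is a 2-fold difference on this scale. Intervals at 95% come from the exact Clopper-Pearson method applied to read pairs, without the added 1 RPKM. They cover counting error only and not the spread between cultures. The libraries held 8983374 (EGFP), 9498401 (Mael), 8965485 (Piwi) and 4865534 (Brm) reads.

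The knockdown was seen in its own target. Summed over its 3 transcripts, mael had 14.5 RPKM in the EGFP library, 4.20 in the Mael library, 13.3 in the Piwi library and 15.8 in the Brm library. The Mael library thus held 28.9% of the control level, from 236 reads in the control and 72 after knockdown, and was the lowest of the 4. The relative difference was -1.45, with an interval of -2.24 to -1.11. Each transcript taken alone was under the floor, and the leading one had an interval of -2.52 to -0.63. How reads shared between transcripts were assigned is not given in the sources used here. If they were counted for each transcript, the intervals of summed transcripts in this paragraph are too narrow. RNA of piwi itself was also lower after Mael knockdown, at 57.7 RPKM against 81.5 in the control. On Mael knockdown the relative difference of piwi was -0.36 (interval -0.50 to -0.24). What part the lower piwi RNA had in the differences of transposons was not tested. brm had 6.66 RPKM in the control and 7.40 after Mael knockdown, with an interval of -0.03 to 0.60 that included 0.

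Cell markers matched the label only in part. Of 16 follicle cell markers, 4 met the floor, and the intervals of all 4 included 0. These were the transcription factors tj (47.1 and 44.1 RPKM in the EGFP and Mael libraries), zfh1 (5.26 and 5.20) and Stat92E (24.7 and 21.5), and the Hedgehog receptor ptc (10.8 and 9.59). The summed level of the list as deposited was 109 RPKM in the control and 98.8 after knockdown. Such sums are not set relative to the median feature, which lay at -0.13. The median relative difference of the 4 was 0.005. The other 12 were under the floor, from upd1, listed at 0 in both libraries, to Fas3, a cell adhesion protein, at 4.67 RPKM in the control. Fas3 had 2.17 RPKM in the Mael library, with an interval of -1.66 to -0.27 that lay under 0, while bab2 had 2.94 and 3.93 RPKM with an interval of 0.08 to 1.02 above 0. None of 10 haemocyte and 6 neuron markers met the floor. Of 10 muscle markers 1 did, the actin gene Act57B, which had 247 RPKM in the control and 131 after knockdown. Of 17 germline markers found, 4 met the floor (krimp, pgc, spn-E and tapas), with a median relative difference of -0.07. The summed level of that list as deposited was 109 RPKM in the control and 85.4 after knockdown. In bulk RNA, fewer cells of a type and less RNA per cell cannot be told apart.

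Loss of Mael went with more RNA of a small group of transposons. Of the 35 transposons that met the floor, 6 were called higher (17.1%) and 0 were called lower. Among the 4250 genes, 23 were called higher (0.541%) and 14 lower (0.329%). Of the 6 transposons, 5 were LTR retrotransposons of the gypsy superfamily (mdg1, Quasimodo, Tabor, 297 and blood) and 1 was an entry named for another fly species (Dpse\mini-me). A transposon value is that of a whole family of genomic copies, so it has no single position in the genome.

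**Figure D1:**
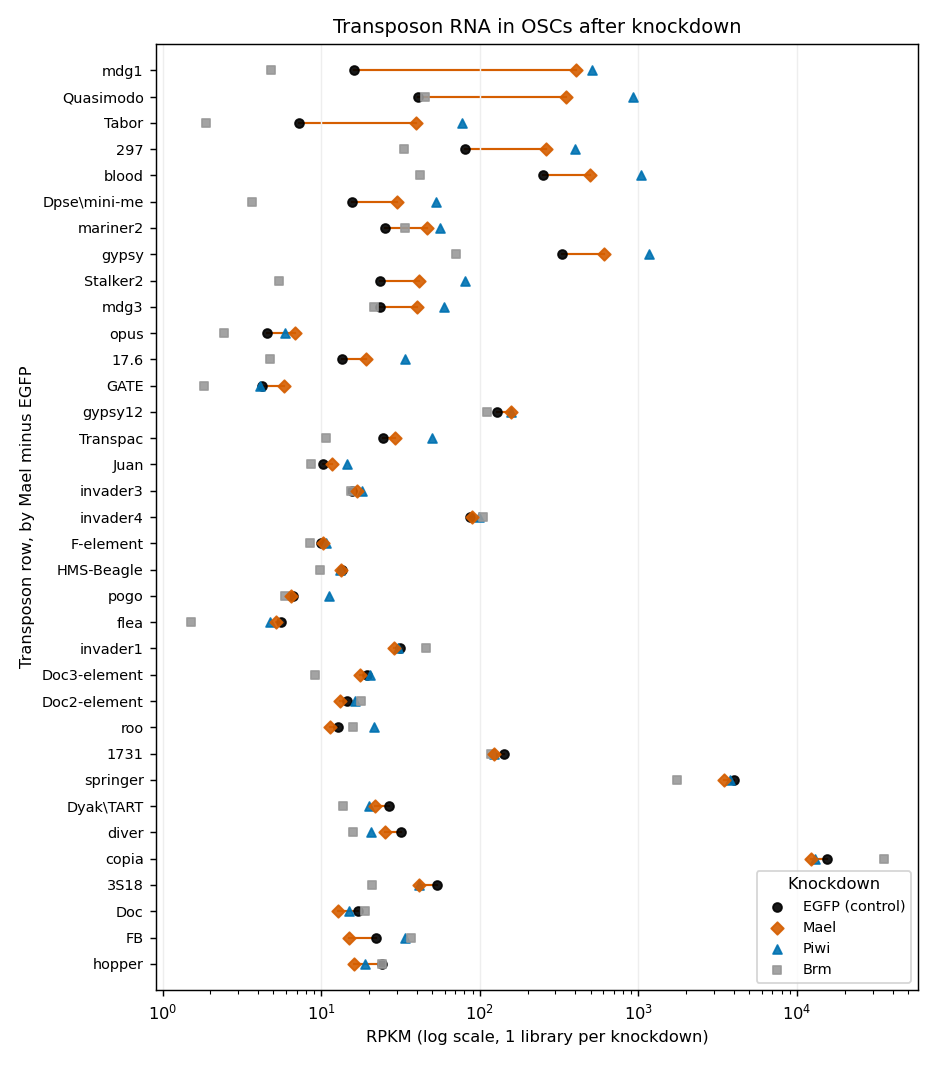
Level in RPKM (log axis) of each of the 35 transposons that met the floor, 1 point for each of the 4 libraries, ordered by the difference between the Mael and EGFP libraries, which a line joins. The joining lines are longest for mdg1 (16.01 RPKM in the control and 404 after Mael knockdown), Quasimodo, Tabor and 297 (81.1 and 263). They shorten from blood (250 and 495) toward the elements with little difference. Toward the bottom they lengthen again with the Mael level under the control, as for FB (22.14 and 15.04) and hopper (24.05 and 16.14). The most abundant elements are copia and springer, at the bottom right.

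mdg1 had the largest difference of any feature. It had 16.01 RPKM in the EGFP library, 404 in the Mael library, 513 in the Piwi library and 4.84 in the Brm library. The relative difference on Mael knockdown was 4.70 (interval 4.66 to 4.91), from 1076 and 28683 reads. The Mael level was thus close to the level without Piwi, and the level without Brm was below the control.

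Quasimodo came second among transposons and differed from mdg1 in how it stood to the Piwi library. It had 40.5 RPKM in the EGFP library, 349 in the Mael library, 918 in the Piwi library and 44.9 in the Brm library. The relative difference on Mael knockdown was 3.21 (interval 3.16 to 3.32). The level without Mael lay well under that without Piwi, and the Brm library was near the control.

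Tabor was the scarcest of the called elements in the control, at 7.24 RPKM. It had 39.4 RPKM in the Mael library, 77.0 in the Piwi library and 1.87 in the Brm library. That gave a relative difference of 2.42 (interval 2.37 to 2.78). For 297 the levels were 81.1 RPKM (EGFP), 263 (Mael), 397 (Piwi) and 33.1 (Brm), with a relative difference of 1.81 (interval 1.76 to 1.89). In both elements the Mael level lay between the control and the Piwi level, and the Brm level was the lowest.

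blood was already abundant in the control. Its levels were 250 RPKM (EGFP), 495 (Mael), 1043 (Piwi) and 41.9 (Brm), and its relative difference on Mael knockdown was 1.11 (interval 1.08 to 1.15). Dpse\mini-me had 15.6 RPKM (EGFP), 29.9 (Mael), 52.7 (Piwi) and 3.65 (Brm), with a relative difference of 1.03 and an interval of 0.88 to 1.27 that reached under the call. As deposited, without setting the median to 0, both lay under the call, and 4 transposons were then called higher.

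A further pair of elements lay just under the call. gypsy, the family that names the group and the target best known from follicle cells, had 330 RPKM in the control and 602 in the Mael library. It had 1172 RPKM in the Piwi library and 70.8 in the Brm library, and its relative difference on Mael knockdown was 0.996 (interval 0.97 to 1.03). mariner2, a DNA transposon that moves by cutting and pasting, had 25.1 RPKM in the control, 46.6 in the Mael library, 56.5 in the Piwi library and 33.8 in the Brm library. Its relative difference was 0.997, with a wider interval of 0.67 to 1.38 from 206 and 404 reads. Both intervals contained the call, and both elements passed it with an added 0.1 RPKM, with a floor of 10 RPKM, or when centred on a trimmed mean. With a floor of 1 RPKM both were at 0.97, and with no floor at 0.93.

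Below these, 4 more gypsy-superfamily elements had relative differences between 0.60 and 0.91. They were Stalker2 (23.6 RPKM in the control and 41.3 in the Mael library), mdg3 (23.6 and 40.2), opus (4.57 and 6.87) and 17.6 (13.5 and 19.1). GATE stood at 0.51, gypsy12 at 0.43 and Transpac at 0.37. Every one of these intervals lay above 0. Of the 19 gypsy-superfamily elements that met the floor, 5 were called higher and 18 had a relative difference above 0, and the median of the group was 0.60. Over all 35 transposons the median was 0.18 and 65.7% were above 0. The exception within the superfamily was springer, the most abundant member, with 4016 RPKM in the control and 3453 in the Mael library (relative difference -0.09). invader1, flea, HMS-Beagle, invader4 and invader3 lay between 0.01 and 0.23, and on the values as deposited the first 3 of them also lay under 0.

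No element of the other classes was called, although mariner2 among the DNA transposons lay just under the call. The copia and BEL-Pao elements, LTR retrotransposons of other superfamilies, had 0 of 5 called and 0 of 5 above 0, with a median of -0.20. copia, the most abundant element of these cells, had 15484 RPKM in the control, 12254 in the Mael library, 12904 in the Piwi library and 35243 in the Brm library. Its relative difference on Mael knockdown was -0.21 (interval -0.21 to -0.20), while 3S18 was at -0.23, diver at -0.20, 1731 at -0.07 and roo at -0.02. Of 5 LINE elements, retrotransposons without long terminal repeats, 0 were called, and they ran from Doc at -0.26 to Juan at 0.31. Of 4 DNA transposons, 0 were called, with mariner2 at 0.997, hopper at -0.42 (24.05 and 16.14 RPKM), FB at -0.40 (22.14 and 15.04) and pogo at 0.09. The telomeric element Dyak\TART, another entry named for a different species, was at -0.16.

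Counted as shares of each library's reads, transposons together did not take up more of the RNA. The gypsy superfamily held 3.77% of reads in the EGFP library, 4.45% in the Mael library, 6.24% in the Piwi library and 1.63% in the Brm library. Of the Mael library, mdg1 alone held 0.302%, against 0.0120% of the control. The copia and BEL-Pao elements held 8.10% of reads in the EGFP library and 6.42% in the Mael library, most of it copia (7.96% and 6.30%). All transposons together held 11.96% in the control and 10.95% after Mael knockdown, so the larger share of the gypsy superfamily was outweighed by the smaller share of copia.

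A further 138 transposons lay under the floor, 59 of them listed at 0 in both libraries. Of the 29 with a mean of at least 1 RPKM, 2 had a relative difference of at least 1 and none reached -1, while 19 were above 0. The first was 412, a gypsy-superfamily element related to mdg1, with 1.57 RPKM in the control, 5.22 in the Mael library, 10.7 in the Piwi library and 0.217 in the Brm library (relative difference 1.40, from 107 and 375 reads). The second was BS, a LINE element, with 0.714 RPKM in the control, 2.40 in the Mael library, 5.08 in the Piwi library and 0.799 in the Brm library (1.12, from 33 and 117 reads). Neither enters the counts above. ZAM, an element of the gypsy superfamily that follicle cells can express, had 1.69 and 2.18 RPKM. The telomeric element HeT-A had 5.12 and 2.42 RPKM.

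The Mael, Piwi and Brm comparisons share the EGFP library, so a chance deviation of that library would enter all of them. Their values for the called elements are therefore set side by side and not correlated. In the order Mael, Piwi, Brm, the relative differences were 4.70, 4.96 and -1.21 for mdg1, 3.21, 4.51 and 0.48 for Quasimodo, and 2.42, 3.29 and -1.19 for Tabor. They were 1.81, 2.32 and -0.94 for 297 and 1.11, 2.10 and -2.22 for blood. Tabor without Brm was under the floor of that comparison. Among these 5, the Mael and Piwi values lay closest together for mdg1 and furthest apart for Quasimodo.

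The called elements were compared with the others on features that did not enter the call. The 6 called elements had a median length of 7366 bases (4622 to 7480), against 5143 (912 to 9092) for the 29 others. Reads of the control input, genomic DNA sequenced without immunoprecipitation, give a measure of how many genomic copies match a feature. Over the median RefSeq transcript, this input was 73.8-fold at the median for called elements (33.0 to 96.7) and 61.1-fold for the others (3.13 to 608). Control ChIP enrichment over input, in log2 and relative to the median transcript, had medians of -0.82 and -0.67 for Brm and of -0.56 and -0.44 for Polybromo, a subunit of the PBAP form of SWI/SNF. For Osa, a subunit of the BAP form, the medians were 2.00 (1.41 to 3.32) in the called elements and 0.87 (-0.24 to 2.92) in the others. The ranges overlapped for every one of these measures, and the sets are of unequal size and not independent of family.

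**Figure D2:**
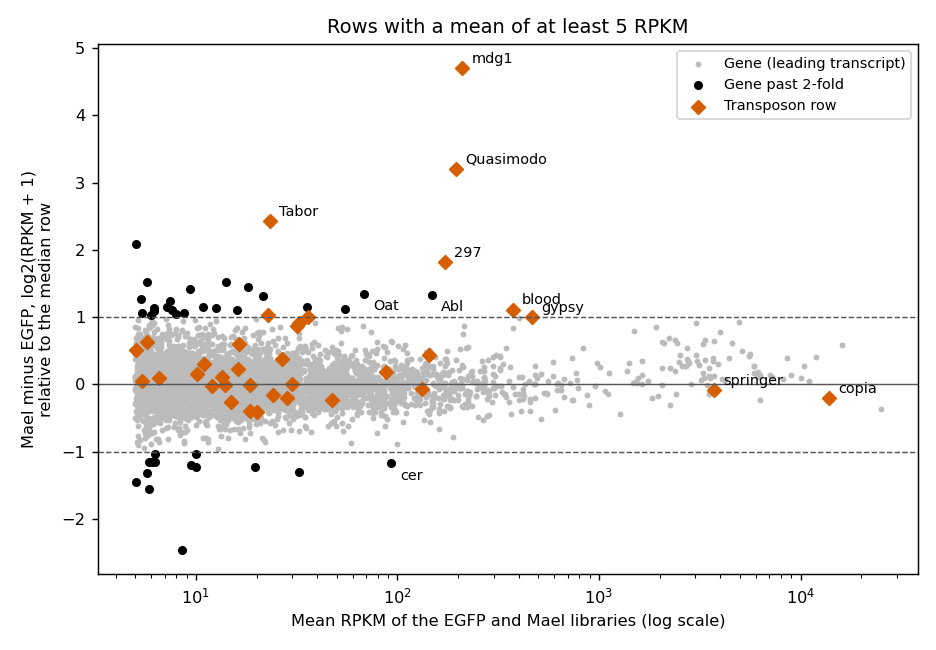
Relative difference between the Mael and EGFP libraries (log2 scale) against the mean level of both (RPKM, log axis), with genes by leading transcript as dots and transposons as diamonds. Dashed lines mark the call at 1 and -1. Transposons such as mdg1 (4.70) and Quasimodo (3.21) lie above all genes, while most called genes lie near the floor of 5 RPKM.

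Gene RNA differed far less. The quartiles over all genes were -0.19 and 0.20, and the SD was 0.33. The median level of the 23 genes called higher was 8.77 RPKM, against 15.8 over all genes, and all 23 had at least 50 reads in both libraries together. The floor is on the mean of both libraries, so a gene low in 1 library can meet it through the other alone. Among weak genes this favours large differences in either direction, and the counts of calls include such genes. In 6 of them the whole interval lay past the call. On the values as deposited, 15 genes were called higher and 21 lower. Higher calls thus made up 62.2% of calls with the median at 0 and 41.7% without that step. Counted as transcripts, 37 of 7071 were called higher (0.523%) and 17 lower (0.24%).

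Among the genes called higher, Abl, Oat and Snoo were abundant. Snoo fell outside the naming rule and was chosen after its values were seen. Abl (chromosome 3L, 16615866 to 16647882 in Release 6), which encodes a non-receptor tyrosine kinase, had 89.5 RPKM in the EGFP library, 206 in the Mael library, 557 in the Piwi library and 33.9 in the Brm library. Its relative difference was 1.33 (interval 1.29 to 1.38). Snoo (2L, 7891187 to 7984196), a cofactor of Smad proteins, had 36.4, 73.4, 225 and 17.2 RPKM in the same order, and a relative difference of 1.12 (interval 1.04 to 1.24). For both, the Piwi library was the highest and the Brm library the lowest. Oat (3L, 19647280 to 19649851), the mitochondrial ornithine aminotransferase, had 40.8, 96.1, 117 and 18.3 RPKM, and a relative difference of 1.35 (interval 1.16 to 1.57).

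The largest difference among genes that met the floor was that of lncRNA:CR44447 (2R, 8304495 to 8305095), a long noncoding RNA, at 2.08. With 1.48 RPKM in the control and 8.58 in the Mael library, it met the floor only through the Mael library. It rested on 8 reads in the control and 49 in the Mael library, so its interval was wide (1.09 to 4.62). Next came CG14187 at 1.53 (12 and 41 reads) and CG10581 at 1.52, from 7.40 to 21.0 RPKM (39 and 117 reads). CG14187, with 2.72 and 8.77 RPKM, also met the floor only through the Mael library. Rnf11 (chromosome 4, 314923 to 331387), a RING finger protein, stood at 1.45 with 9.92 RPKM in the control, 26.2 in the Mael library and 39.7 in the Piwi library. CPT2 (3L, 2981022 to 2983551), the carnitine palmitoyltransferase of the inner mitochondrial membrane, had 5.02, 13.7, 7.16 and 3.58 RPKM in the EGFP, Mael, Piwi and Brm libraries. Its relative difference was 1.42 on Mael knockdown (interval 1.12 to 2.06), 0.49 in the Piwi comparison and -0.06 in the Brm comparison. The Mael library was thus the one that stood out.

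The other genes called higher that the naming rule took had relative differences between 1.13 and 1.32. They were CG3635, CG15209, CG2233, CG15047, the ribosomal protein paralog RpS10a, CG32650 and snRNA:7SKa, besides 1 transcript accession that matched no gene symbol. The 7SK RNA holds the elongation kinase P-TEFb inactive. CG15047 was the most abundant of these, with 23.1 RPKM in the control, 48.0 in the Mael library and 62.9 in the Piwi library. snRNA:7SKa had 8.02, 17.1, 15.6 and 30.6 RPKM in the EGFP, Mael, Piwi and Brm libraries, so its level was above the control in each. RpS10a rested on 24 and 57 reads, and how reads shared with its paralog RpS10b were assigned is not given in the sources used here.

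Genes called lower were short and mostly weak. All 14 were among the shortest 1063 genes (123 to 922 bases), with a median length of 249 bases against 1440 for all genes. Of the 14, 8 had under 50 reads in both libraries together, and for 7 the interval included 0. In none did the whole interval lie past the call. With at least 50 reads there were 6, all coding for protein. cer (2R, 19396215 to 19396772), an inhibitor of cysteine proteases, was the most abundant, with 132 RPKM in the EGFP library, 52.96 in the Mael library, 131 in the Piwi library and 137 in the Brm library. At a relative difference of -1.17 (interval -1.51 to -0.89), the Mael library was low while the other 3 were alike.

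OS9 (2L, 19965664 to 19966510), a lectin of the degradation of misfolded proteins from the endoplasmic reticulum, had 14.0, 4.94, 9.77 and 7.04 RPKM in the EGFP, Mael, Piwi and Brm libraries. This was a relative difference of -1.20 (interval -2.29 to -0.62). The rest were BaraB, a gene of the Baramicin family, at -1.32 (8.81 to 2.58 RPKM), CG44476 at -1.31 (48.0 to 17.1), CG31922 at -1.22 (28.7 to 10.6) and CG43062 at -1.15 (9.34 to 3.24). For each of these the Mael library was lower than the control by more than counting error. Among the 8 with fewer reads were 6 small nuclear or nucleolar RNAs, 1 unmatched noncoding accession and the larval cuticle protein Lcp9.

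Genes nearest to the call show how little separates both sides of it. Just above it were CG42374 (1.03), CG30269 (1.05) and CG16888 (1.06). Just under it were udd, a factor for transcription by RNA polymerase I (284 to 514 RPKM, 0.98), CG5181 (0.97) and Ada1-2 (0.97). On the lower side, Lcp9 (-1.04) was just past the call and CG1750 (-0.97) and Nepl3 (-0.94) just short of it. At the floor of 5 RPKM, the transcripts just inside were those of Vhl, CG34179 and CAH3, with relative differences of 0.12, 0.06 and 0.86. Those just outside were MESR3, CG6299 and CoRest, at 0.08, 0.53 and 0.21.

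Some of the genes called higher had transcripts with unusually many input reads. Input was over 4 times the median transcript for 48 genes, a limit chosen after the values were seen. Of these, 3 were called higher (6.25%) and 0 lower, and their median relative difference was 0.07. Among the other 4202 genes, 20 were called higher (0.476%) and 14 lower. The 3 were Abl (23.2 times the median), Rnf11 (7.51) and Snoo (4.64), and udd, just under the call, stood at 20.9. Other genes with high input had values near 0. Sec20 had 102 times the median input and a relative difference of 0.10, Cyp6a14 had 46.4 times and -0.11, and isoQC had 28.8 times and -0.09. These genes were chosen after their values were seen.

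**Figure D3:**
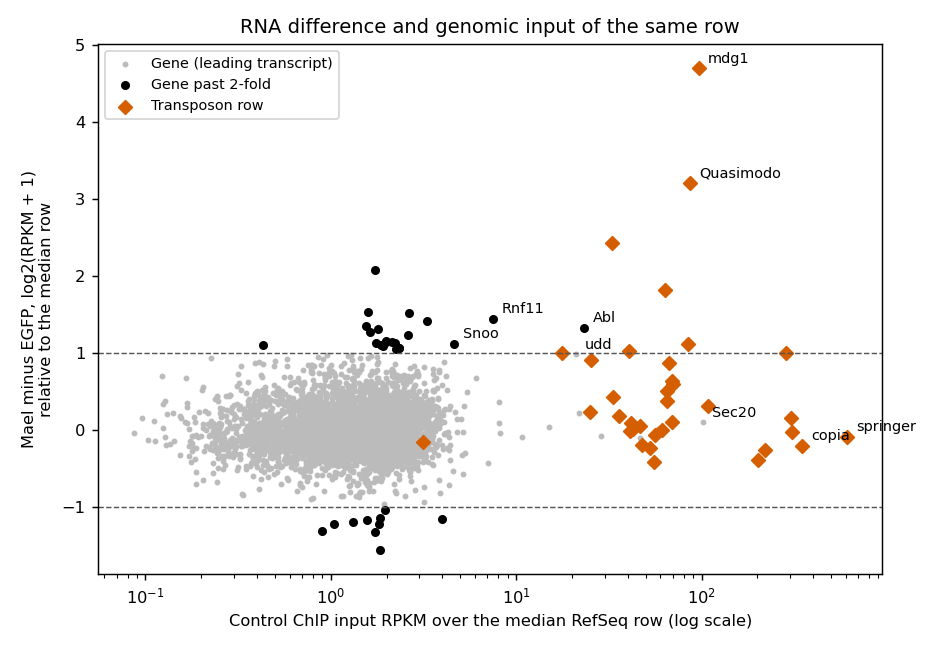
Relative difference between the Mael and EGFP libraries (log2 scale) against control input over the median RefSeq transcript (log axis), with genes as dots and transposons as diamonds. Genes with an input of 0 (171, of which 5 were called) are not drawn. Abl, Rnf11 and Snoo lie to the right of the other called genes, toward the transposons, while Sec20 has high input and a difference near 0.

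In these 3 genes the listed transcripts differed widely among themselves. Abl has 2 transcripts of 12510 and 12564 bases, by the length recovered from the values, with 88.4 to 89.5 RPKM in the control and 206 in the Mael library. Its other 8 transcripts, of 2852 to 6310 bases, had at most 0.117 RPKM in the control and at most 0.139 in the Mael library. Their input was 0.0458 to 0.474 times the median, against 23.2 to 25.7 for the long pair. For Snoo, 1 transcript went from 36.4 to 73.4 RPKM, and the 3 others had at most 0.343 RPKM in the control and 0.827 in the Mael library. For Rnf11, a transcript of 2311 bases went from 9.92 to 26.2 RPKM, while the one of 3965 bases had 1.77 and 1.35 RPKM and an input of 1.44 times the median. How reads shared between transcripts were assigned is not given in the sources used here, so a value of 1 transcript cannot be taken as its own level apart from the others. Whether reads of repeated sequence within them had a part in this was not tested.

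The gene lists, 26 in all with the transposon classes, showed shifts well inside the call. The background for each gene list is the median of all 4250 genes, -0.01, with 49.4% of them above 0. For the transposon classes it is that of the 35 transposons, 0.18, with 65.7% above 0. Of all genes, 0.541% were called higher and 0.329% lower. Cytoplasmic ribosomal proteins had 1 of 87 called higher (RpS10a), 0 lower and 75 above 0, with a median of 0.27. RpL13A had 3628 RPKM in the control, 6322 in the Mael library, 3543 in the Piwi library and 3583 in the Brm library (relative difference 0.93, interval 0.90 to 0.97). RpL4 followed at 0.91, RpS5b at 0.87 and RpS10b at 0.85. For RpL13A the Mael library was high and the 3 others were alike. The median of the list was close to 0 in the Piwi comparison and 0.34 in the Brm comparison. Mitochondrial ribosomal proteins had 0 of 73 called, 37 above 0 and a median of 0.00.

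**Figure D4:**
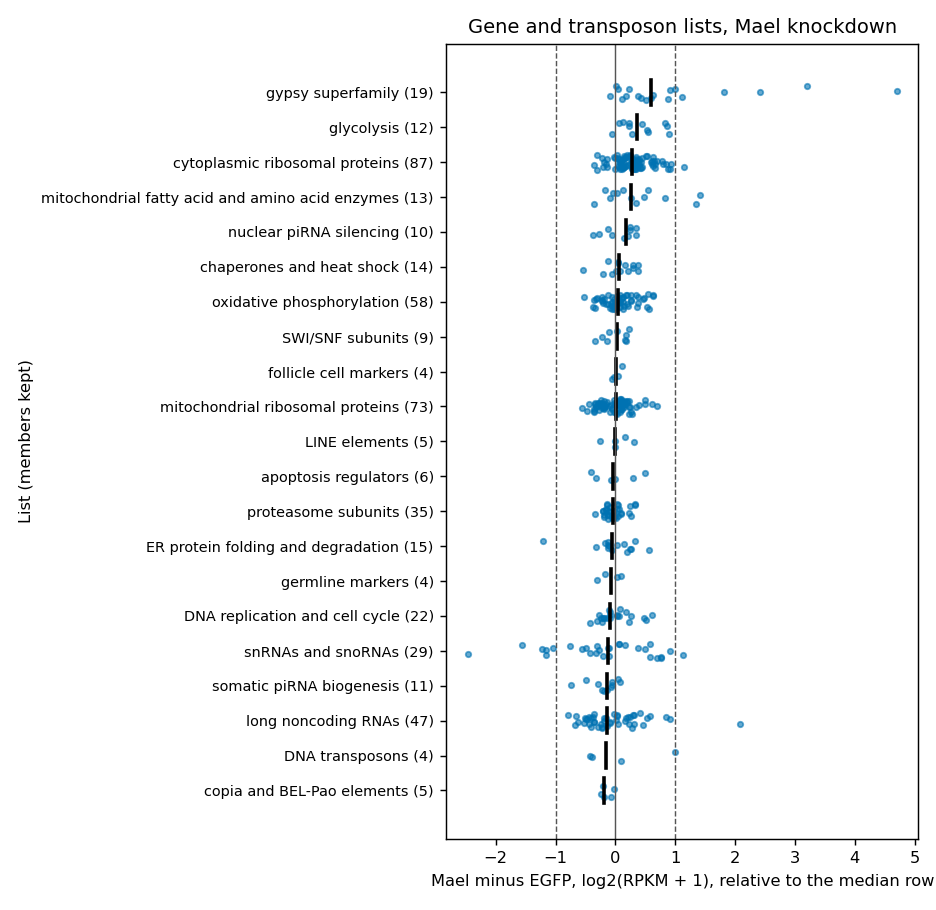
Relative difference between the Mael and EGFP libraries (log2 scale) for each member of the lists with at least 4 members above the floor, 1 point a member, with the list's median as a black bar and the call as dashed lines. The gypsy superfamily (median 0.60), glycolysis (0.37) and cytoplasmic ribosomal proteins (0.27) have the highest medians, and few members of any gene list lie past the call.

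Glycolysis, the breakdown of glucose to pyruvate, had 0 of 12 genes called, 11 above 0 and a median of 0.37. The highest were Pglym78 at 0.90 (8.44 to 15.1 RPKM), a phosphoglycerate mutase, and Ldh at 0.87 (50.4 to 84.5 RPKM), lactate dehydrogenase. The aldolase Ald1 stood at 0.83 and the pyruvate kinase PyK at 0.53, while Pgi was at -0.06. The list's median was -0.12 in the Piwi comparison and -0.79 in the Brm comparison, which both share the control library. Mitochondrial fatty acid and amino acid enzymes had 2 of 13 called higher, CPT2 and Oat, where 0.541% of all genes were called higher. The lists were chosen with earlier results of these data known, so this share is not evidence of a shift in these enzymes. The median of this list was 0.25. Mtpbeta, a subunit of the trifunctional protein of fatty acid oxidation, was at 0.83 (38.4 to 63.1 RPKM), and its partner Mtpalpha at -0.35 (100.4 to 71.4 RPKM). Thus the 2 subunits lay on opposite sides of 0.

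None of the genes of the piRNA pathway that met the floor was called, where 0.541% of all genes were called higher and 0.329% lower. At such shares, the lack of calls among so few genes says little. Some lay under their control level by more than counting error, but how many of all genes did so was not counted. Of the nuclear silencing factors, 10 met the floor, 0 were called and 6 were above 0, with a median of 0.18. piwi by its leading transcript was at -0.38 (44.0 to 30.6 RPKM) and ctp, a dynein light chain, at -0.28. Panx, which links Piwi to silencing, and arx, a zinc finger partner of Piwi, were both at 0.34, with intervals that included 0. The median of this list was 0.00 with transcripts summed and -0.01 with no floor, so it has no stable direction. Of the factors of somatic piRNA biogenesis, 11 met the floor, 0 were called and 2 were above 0, with a median of -0.13. daed, a mitochondrial partner of Gasz in piRNA processing, had 11.1 and 5.57 RPKM (-0.75, interval -1.51 to -0.24). vret, a Tudor protein, had 14.3 and 9.0 RPKM (-0.49, interval -0.91 to -0.16). SoYb, another Tudor protein, was under the floor with 4.85 and 2.55 RPKM (interval -1.26 to -0.31). It lay outside the naming rule and was chosen after its values were seen. These 3 intervals lay under 0, while those of zuc (-0.29), the nuclease that cuts piRNA precursors, and armi (-0.13), a helicase, included 0. Of those that met the floor, Hel25E (-0.08), Tudor-SN (-0.06), Hen1 (-0.06), Hsp83 (0.04) and shu (0.07) lay nearest to 0.

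The subunits of the SWI/SNF complexes had 0 of 9 called and a median of 0.02, from Bap55 at -0.35 to Bap170 at 0.22. Proteasome subunits (0 of 35, median -0.04), oxidative phosphorylation (0 of 58, 0.05) and chaperones (0 of 14, 0.06) had medians near that of all genes. The list of replication and cell cycle genes (0 of 22) had a median of -0.09. Within them Mcm3, a subunit of the replicative helicase, was at 0.61 (18.8 to 26.6 RPKM) and dup, its loading factor, at -0.43 (10.99 to 7.12 RPKM). Of 15 genes of protein folding in the endoplasmic reticulum 1 was called lower, OS9, and Xbp1, a transcription factor of the unfolded protein response, was at 0.57 (27.7 to 37.8 RPKM). Among 29 small nuclear and nucleolar RNAs, 1 was called higher and 6 lower, with a median of -0.13, where 0.541% of all genes were called higher and 0.329% lower. All 6 lower calls rested on 15 to 30 reads in both libraries together, and for 5 of them the interval included 0. Long noncoding RNAs had 1 of 47 called, higher, with a median of -0.14. The apoptosis regulators (0 of 6, -0.04) and cuticle proteins (1 of 2 lower) were too few above the floor to describe further, and none of the replication-dependent histones met it.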

How the data were processed

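RNA of OSCs was sequenced by the submitters from total RNA with a TruSeq RNA kit, per the labels' protocols. Bowtie2 2.2.4 and the dm6 build are named in the submitters' processing notes. How reads were counted, and how those matching several copies were assigned, is not given in the sources used here. The deposited values are RPKM, computed by the authors. Of the RNA columns, 4 matched no sample and were not used. The ovary libraries were not analysed here.

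Library totals were recovered by searching for the number that makes RPKM times length whole. The length of a feature was the shortest from 20 to 80000 bases that gave whole reads within 0.01. This made 100% of values whole, largely because lengths are chosen to do so, and reads are understated where the true length is a multiple. Read numbers were even in 62.9% of features of the EGFP library, so intervals use 1 fragment per 2 reads. Of the RefSeq transcripts, 34925 matched a gene of the Release 6 table and 402 did not. The number after an accession marks a further genomic place.

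Named were the targeted genes, all transposons above the floor, up to 15 called genes each way with at least 50 reads, and of each list the called members and up to 4 others with the largest absolute difference. Other named features were chosen after their values were seen or for a place next to a threshold. The members and lists were chosen with earlier results of these data known. With 1 library per group no test was made. ChIP enrichment is log2 of deposited RPKM over its own input, relative to the median of the kept RefSeq transcripts, and the input shown is that of the control Brm and Polybromo ChIP. The steps were tested on simulated data. Python 3.11.15, numpy 2.4.6, pandas 2.3.3, scipy 1.17.1 and matplotlib 3.10.9 were used. One list of genes is not reported here.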

Additional observations from a re-analysis of the deposited data

How the results depend on the processing

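Under the alternatives, 428 values of 64 named features were set against their main values. Of the features past the call, 0 changed sign. These settings could hardly have reversed them, because the centre stayed between -0.15 and 0. Sign was not checked for uncalled features, and called genes with under 50 reads were not run. In all, 33 values moved by at least the radius of their counting interval, the distance from its middle to an end. Transposons called higher ran from 4 to 8 under most settings, with 12 at 1.5-fold. Those called lower were 0, except 1 with no floor (Tom1, from 6 reads and 1 read). Counts of genes moved more. Genes called higher were 35 with 0.1 RPKM added and 9 with 5 RPKM added, 95, 10 and 134 with a floor of 1, of 10 or none, and 15 as deposited. They were 194 at 1.5-fold, 1 at 3-fold, 6 with the whole interval past the call and 37 over all transcripts. Genes called lower were 4 with 5 RPKM added, 81, 4 and 129 with a floor of 1, of 10 or none, 102 at 1.5-fold, 1 at 3-fold, 0 with the whole interval past the call, and 6 with at least 50 reads, a setting chosen after seeing the data. A stricter or looser threshold changes these counts by construction. With transcripts summed, 32 genes were higher and 16 lower. The medians of the gypsy superfamily (0.20 to 0.74), glycolysis (0.24 to 0.50) and cytoplasmic ribosomal proteins (0.14 to 0.29) stayed above 0. No paired analysis was possible because each group has 1 library. Nor could any library be left out. Features with few reads, mainly short RNAs, have the widest intervals.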

Other observations

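Some transcripts passed the call although their gene's leading transcript did not. Over all 7071 transcripts that met the floor, 0.523% were called higher and 0.24% lower. Besides the leading ones, 17 transcripts of 15 genes were called, 14 higher and 3 lower. They include transcripts of Abl and CG3635, whose leading transcripts were called too. Those named here were chosen after their values were seen. A transcript of opm had 4.13 RPKM in the control and 9.07 in the Mael library (1.10), while the leading one had 24.9 and 19.1 (-0.24). One of yki, the coactivator of the Hippo pathway, had 3.51 and 7.93 RPKM (1.12) and the leading one 5.62 and 7.32 (0.46). One of Xrp1, a transcription factor of the stress response, had 6.53 and 13.1 RPKM (1.04), against 14.8 and 18.2 (0.41) for the leading one. In Tpi, the triose phosphate isomerase of glycolysis, the values were 18.3 and 34.4 RPKM (1.01), against 22.9 and 31.0 (0.55). On the lower side, a transcript of Rtnl1, a reticulon that shapes the endoplasmic reticulum, had 8.68 and 3.21 RPKM (-1.07), against 10.7 and 5.82 (-0.65). Transcripts of a gene share sequence, so how the authors assigned shared reads bears on these values. The called transcripts of opm and yki met the floor only through the Mael library, and that of Rtnl1 only through the control.

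By chromosome, the 18 genes of chromosome 4, a small and largely heterochromatic chromosome, had a median relative difference of -0.22 (quartiles -0.34 and 0.04). In the Piwi comparison, which shares the control, their median was 0.12. The medians of the other arms and X lay between -0.04 and 0.03.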
